A study of Homo sapiens with 4 samples.

Results

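Intergenic peaks were the peaks of the HuR RNA immunoprecipitation sequencing (RIP-seq) list that the deposited annotation placed outside every RefSeq gene. They were chosen by the start of the annotation text alone, and 218 of the 14149 listed peaks met it, which was 1.54% (Wilson 95% interval 1.35 to 1.76%). The experiment used MDA-MB-231, a human triple-negative breast cancer cell line grown in culture, to find RNAs bound by the RNA-binding protein HuR. HuR RIP samples, made with a mouse anti-HuR antibody (n = 2), were set against IgG RIP samples, made with mouse IgG (n = 2), and both groups came from the same untreated line without any genetic change named in the labels. The TruSeq RNA kit used for the libraries, without poly A selection, does not mark the strand of the RNA. The result was 1 list for the whole series, so HuR and IgG could not be compared at a peak, the spread between replicates was not measured, and the depth of each library is unknown. Differences between kinds of peaks were not tested, since peaks of 1 list are not replicates.

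HuR, the product of ELAVL1, binds AU-rich and U-rich stretches of RNA and is best known for binding 3′-UTRs, where it protects mRNAs from decay. An intergenic label depends on the gene models used, so a stretch labelled in this way can lie in a gene of another annotation. Processed pseudogenes are copies of mRNAs that were inserted elsewhere in the genome and are often nearly identical to the mRNA. Much of the sequence between genes consists of transposable elements, such as the long and short interspersed elements (LINEs and SINEs) and the LTR elements left by retroviruses.

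The sequences below show how close some intergenic peaks were to an mRNA made elsewhere. Each pair gives the pseudogene at the peak and then the matching mRNA, read 5′ to 3′ in the sense of the mRNA, with differing bases in capitals. Each stretch of 30 bases was the gap-free one with the most differences in the alignment of its peak. The pseudogene stretches lay at chr5:77785277-77785306 (+ strand), chr15:34490207-34490236 (− strand) and chr10:109680686-109680715 (+ strand) of hg38.
ACTBP2: gccatgtacTtGgcCatccagActAtgctG
ACTB: gccatgtacGtTgcTatccagGctGtgctA
HNRNPLP2: aagatctcccTcccCggggactcggatgac
HNRNPL: aagatctcccGcccTggggactcggatgac
XIAPP1: ctataTgaatggggttcagtttcaaggaTG
XIAP: ctataCgaatggggttcagtttcaaggaCA

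In these stretches, the pseudogenes differed from the mRNA at 2 bases for HNRNPL, a splicing factor. They differed at 3 bases for XIAP, an inhibitor of apoptosis, and at 6 for ACTB, beta-actin.

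The peak score is the peak caller's own value for each peak, and its scale is not stated. Intergenic peaks had a median score of 17.1 with quartiles of 12.3 and 37.2, and the scores ranged from 8.81 to 909.8. The median was 34.3 for the other 13931 peaks and 28.6 in introns. Scores at or above the median of the list were held by 59 intergenic peaks, or 27.1% (21.6 to 33.3%), against 50.4% of the other peaks. Scores of at least 100 were held by 15 of them, or 6.88% (4.21 to 11.0%), against 21.6%. Together the intergenic peaks carried 0.665% of the summed score. The focus ratio, which is the share of reads placed around the centre as a focused peak would have them, had a median of 0.604 (quartiles 0.554 and 0.674) in intergenic peaks, 0.541 in the other peaks, 0.528 in introns and 0.612 in promoters. It was above 0.8 in 20 intergenic peaks, or 9.17% (6.02 to 13.7%), and in 3.53% of the other peaks.

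The highest scores belonged to CSNK1A1, which encodes the kinase CK1 alpha of Wnt signalling. Its − peak at chr5:149494322-149494668 scored 909.8 and its + peak at chr5:149494543-149494889 scored 776.7. Both lay within the 3′-UTR of CSNK1A1 in GENCODE 44, a more recent set of gene models than the one behind the deposited labels. The list held 15 other peaks of this gene, the highest at 953.2. The pentamer ATTTA, the core of AU-rich elements, was searched on both strands of this site. In the sense of CSNK1A1 the + peak held 1 copy and the − peak, the higher of the pair, 0. On the opposite strand the + peak held 2 and the − peak 1, which lay in the overlap of the peaks and was 1 of those 2. The sense copy is shown in capitals as read on the − strand, the strand of the gene, at chr5:149494771-149494800.
CSNK1A1: attaagttgcagATTTAaaactgctgttag

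The next scores belonged to a copy of the mRNA of EIF4E, the cap-binding protein of translation, upstream of PHB, the gene of prohibitin. The + peak at chr17:49424595-49424941 scored 567.5 and the − peak at chr17:49424205-49424551 scored 420.4, and both lay in the pseudogene EIF4EP2. The + peak was 98.8% identical to EIF4E mRNA and the − peak was 100% identical, and the EIF4E gene itself had 11 peaks with a highest score of 800.5.

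The 2 peaks near PLAC8, which encodes a small cysteine-rich protein, lay past the end of that gene and in no GENCODE gene. They did not overlap, and a listed peak at a transcript end was centred 183 bp from the − peak. The − peak at chr4:83088764-83089110 scored 253.0 and was centred on an L2a element, 1111 bp past the gene. The + peak at chr4:83088122-83088468 scored 207.8 and lay 1753 bp past it. The − peak held 2 copies of ATTTA on the other strand and 0 on its listed strand.

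The remaining 4 of the 10 highest peaks were on the + strand. They were 3 peaks that matched an mRNA of another place and a 5′-UTR peak. The peak at chr16:35802521-35802867 scored 237.9 and lay in no GENCODE gene, though in a gene span of the current RefSeq annotation. It was 95.2% identical to the mRNA of HMGN2, a nucleosome-binding protein, whose own single peak scored 260.6. The peak at chr5:77785019-77785365 near TBCA scored 229.3 and lay in the actin pseudogene ACTBP2. The peak at chr15:34489890-34490236 near MIR1233-1 scored 199.4 and lay in HNRNPLP2, which is 98.3% identical to HNRNPL there. The peak at chr6:24720499-24720845 scored 189.2 and lay on a CpG island in the 5′-UTR of C6orf62, 1497 bp upstream of the start site used for its label.

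At the low end, 6 peaks shared the lowest score of 8.81. Their nearest genes were TTC9C, LOC101929584, UBBP4, MIR630, ABLIM3 and LOC101928618. The TTC9C and MIR630 peaks lay in protein-coding exons of GENCODE 44, of TTC9C and of ARIH1, and were centred on L1PA10 and L2b elements. The LOC101928618 peak matched SEPTIN7 mRNA at 94.8% identity.

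Peak centres were then placed in GENCODE 44. Of the 218 peaks, 40 were in a protein-coding exon, or 18.3% (13.8 to 24.0%), and 43 in a pseudogene exon, or 19.7% (15.0 to 25.5%). Another 24 were in an exon of a long non-coding RNA (lncRNA) or other gene, or 11.0%, and 45 were in a gene but outside its exons, or 20.6%. The other 66, or 30.3% (24.6 to 36.7%), were in no GENCODE gene, which is called no gene below. Some of these 66 lay in a gene span of the current RefSeq annotation. They also included all 6 peaks on scaffolds outside chromosomes 1 to 22 and X, where the GENCODE models used gave no gene. In all, 152 peaks, or 69.7% (63.3 to 75.4%), were centred in a GENCODE gene and 107, or 49.1% (42.5 to 55.7%), in an exon. Without the 6 scaffold peaks, the gene share was 71.7%. Of the other 13931 peaks, 99.7% were centred in a GENCODE gene and 42.8% in an exon, a share within the interval for intergenic peaks. Protein-coding exons held 41.5% of the other peaks and pseudogene exons 0.251%. By the gene spans of the current RefSeq annotation, 151 peaks, or 69.3%, lay in a gene. The listed strand was that of the gene in 58 of the 107 exon peaks, or 54.2% (44.8 to 63.3%).

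**Figure D1:**
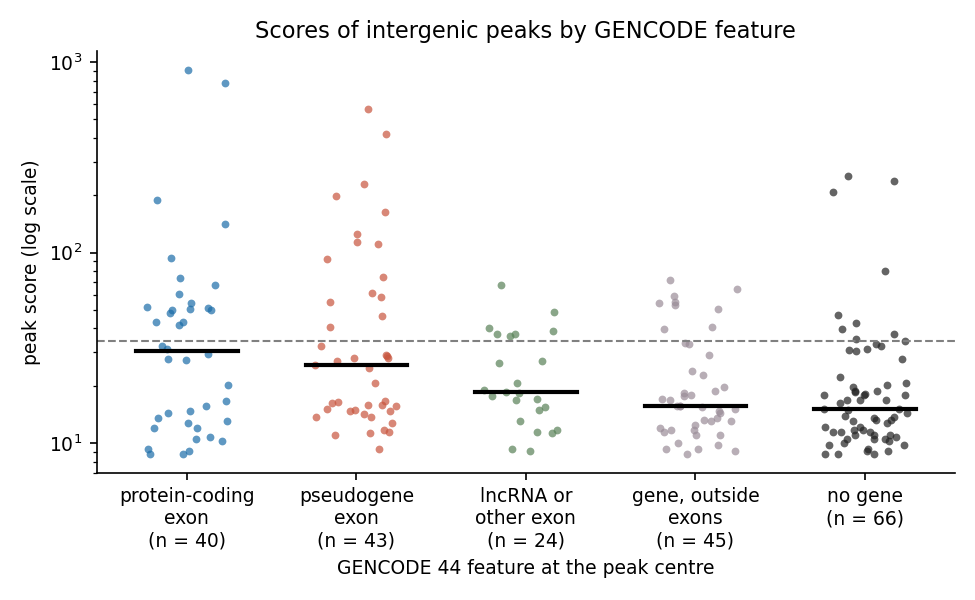
Peak score on a log axis for the 218 intergenic peaks, split by the GENCODE 44 feature at the peak centre. Points are peaks, black bars are medians and the dashed line is the median of the other 13931 peaks, 34.3; class medians run from 15.05 for peaks in no gene to 30.35 for protein-coding exons.

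The median score was 30.35 in protein-coding exons, 25.7 in pseudogene exons, 18.5 in lncRNA or other exons, 15.7 in genes outside exons and 15.05 in no gene. The quartiles of all 5 overlapped. Scores of at least 100 occurred in 4 peaks of protein-coding exons, in 8 of pseudogene exons and in 3 peaks of no gene, and in 0 of the 24 lncRNA peaks and 0 of the 45 peaks in genes outside exons.

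The protein-coding exons were mostly 3′-UTRs. Of the 40 peaks, 33 lay in 3′-UTRs of 23 genes, 3 in 5′-UTRs, 2 in coding sequence and 2 in transcripts without coding sequence. The median score of the 33 was 31.3 and the range was 8.81 to 909.8. The gene column of the list named the GENCODE gene for 17 of the 40, or 42.5%. Other peaks of a gene were counted by the transcript in their label. By this count 15 of the 29 genes had other peaks in the list, which is a minimum. For example, the peaks with CASS4 in the gene column lay in the 3′-UTR of CSTF1, a subunit of the complex that cleaves pre-mRNAs at their ends, and scored 73.9 on the + and 67.8 on the − strand. The other listed peak of CSTF1 scored 83.2. Peaks attributed to TRPM7, with scores of 60.4 and 50.2, lay in the 3′-UTR of SPPL2A, an intramembrane protease, which had 7 other peaks with a highest score of 60.0. Peaks attributed to FHOD3, with scores of 48.2 and 43.3, lay in the 3′-UTR of MOCOS, which had 7 others with a highest score of 39.2. In RNASEH1, which encodes a nuclease for RNA in RNA-DNA hybrids, the 3′-UTR peaks scored 51.9 and 50.4 and were centred on a HAL1M8 element. No other listed peak was labelled with a transcript of this gene. A listed promoter peak was nonetheless centred 15555 bp from the + peak toward the start site, which lay 15910 bp away. Both coding-sequence peaks, attributed to KLRC1, lay in EIF2S3B, with scores of 142.2 on the − and 93.2 on the + strand. They were 99.1% identical to the mRNA of EIF2S3, a subunit of a translation initiation factor, and the EIF2S3 gene had 14 peaks with a highest score of 559.7.

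The pseudogene peaks covered 30 pseudogenes, and 36 of the 43 peaks, or 83.7% (70.0 to 91.9%), lay in pseudogenes of a processed type. The gene column named the pseudogene in 0 of the 43. The peaks were chosen for lying outside the RefSeq genes of the deposited annotation, so this count was largely set by the selection. Of the 78 peaks of the whole list with a centre in a GENCODE pseudogene exon, these 43 were 55.1% (44.1 to 65.7%). Their scores ranged from 9.30 to 567.5. Besides those above, SPCS2P4, near EYA3, scored 163.7 on the − and 114.0 on the + strand, and was 99.7% identical to SPCS2, a signal peptidase subunit. PBX2P1, near CHST2, scored 74.4 on the + and 26.9 on the − strand. ZNF731P, near MIR3916, scored 124.8 on the − and 92.5 on the + strand, and neither peak matched the mRNA of another gene by the rule given next.

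All peak sequences were compared with protein-coding transcripts of genes elsewhere in the genome, and an alignment of at least 200 bp at 90% identity or more was called a match. A match was found for 53 intergenic peaks, or 24.3% (19.1 to 30.4%), and for 166 of the other 13931, or 1.19%. Introns had a match in 0.902% of peaks. The median identity of the 53 matches was 97.7% (range 90.6 to 100%), 42 were at least 95% identical and 46 aligned over the full 347 bp of a peak or more. Of the 53, 34 were pseudogene peaks, 10 lay in no gene, 5 in genes outside exons, 2 in protein-coding exons and 2 in lncRNA or other exons. No repeat lay at the centre of 46 of the 53. Matched peaks had a median score of 26.9 and unmatched ones of 16.9.

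The 53 peaks matched 37 genes, and 26 of these genes had peaks of their own, counted by the transcript in their label. Where they did, the gene's highest peak was above the intergenic peak in 35 of 37 cases, and the median ratio was 7.50 (quartiles 4.13 and 16.3). With each gene set against its highest copy only, it was above in 24 of 26. The highest of a gene's peaks was set against a single peak, which favours genes with several peaks. The 2 exceptions were the SPCS2P4 peak at 163.7, against 132.9 in SPCS2, and a peak on an alternate scaffold of chromosome 5 at 14.4, against 9.54 in OCLN, a tight-junction protein. The GENCODE models used gave no gene at the scaffold peak, so whether it lay in a copy or in OCLN itself was not tested. ACTB stood at the other end, with a highest score of 25897.6, the highest of the list. Its copies scored 229.3 and 58.5 in ACTBP2 and 11.7 in ACTBP11. The XIAPP1 peak scored 14.7 at 96.8% identity to XIAP, whose highest peak was 60.7. Copies of SMS, which encodes spermine synthase, scored 55.3, 40.9 and 11.3, against 548.6 in the gene itself. How the aligner placed reads that fit several positions is not given in the sources used here, and the share of reads at these peaks that came from the other gene was not tested.

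**Figure D2:**
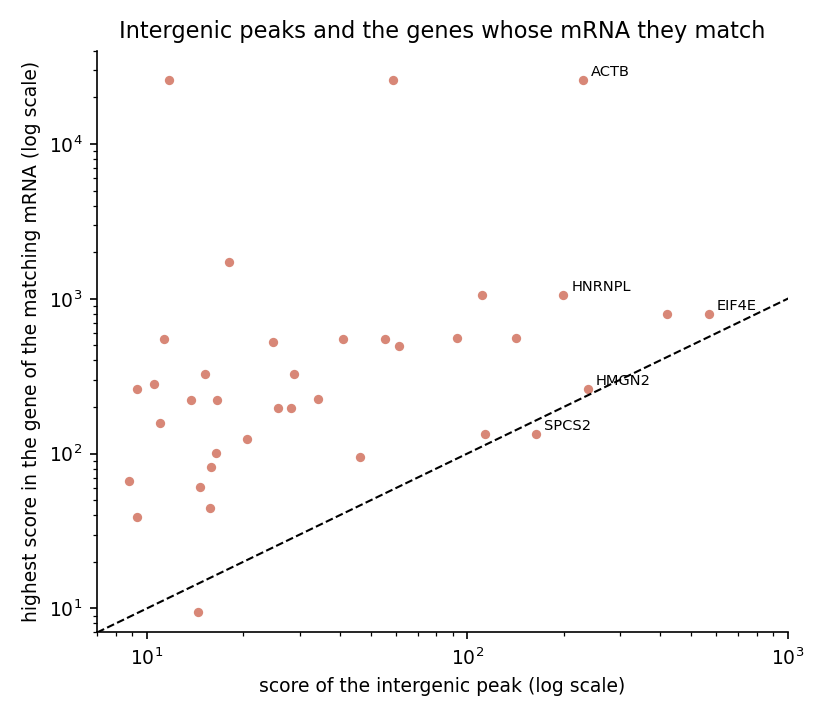
Score of 37 intergenic peaks on the x axis against the highest score in the gene whose mRNA each peak matches on the y axis, both on log axes, with equality dashed. Points are peaks, and 35 of the 37 lie above the line, up to ACTB at 25897.6.

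Annotated repeats lay at the centre of 93 intergenic peaks, or 42.7% (36.3 to 49.3%), against 12.2% (11.5 to 12.9%) of intron peaks. Peaks labelled as exons or UTRs carry that label in place of a repeat, so introns are the comparable kind. LINEs made up 47 of the 93, LTR elements 25, SINEs 14, DNA transposons 4, simple repeats 2 and satellites 1. Of the LINE peaks, 39 were L1, 5 L2 and 3 CR1, and 34 of the 39 L1 names began with L1M, the older mammalian L1 lineages, against 3 with L1P, the primate ones. The LTR peaks were ERV1 in 11, ERVL-MaLR in 9 and ERVL in 5, and the SINE peaks were Alu in 13 and MIR in 1. LINEs were at the centre of 21.6% of intergenic and 3.43% of intron peaks, and LTR elements of 11.5% and 0.560%. SINEs were at 6.42% and 5.72%, and DNA transposons at 1.83% and 1.18%, and these intervals overlapped.

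**Figure D3:**
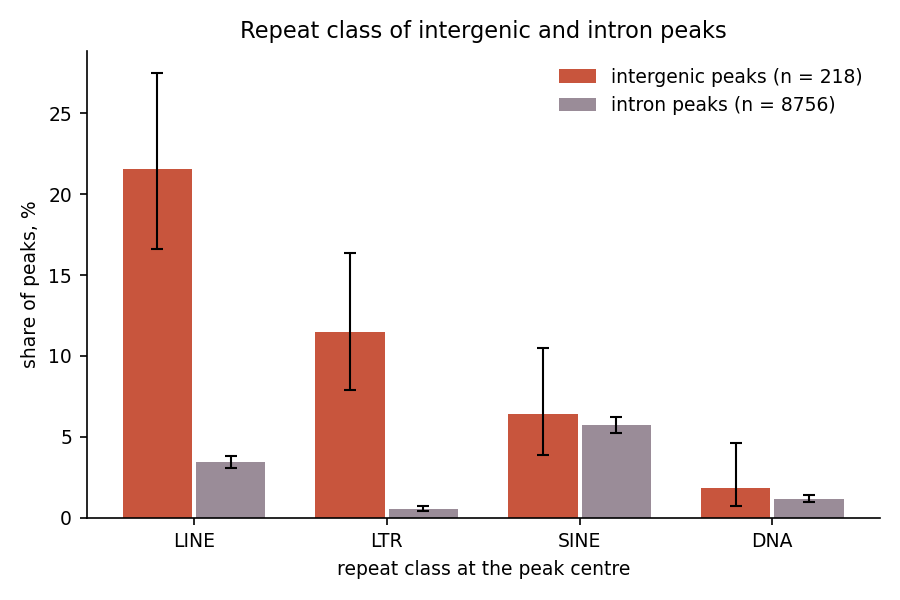
Share of peaks, in percent, whose centre lies on a LINE, LTR element, SINE or DNA transposon, for 218 intergenic and 8756 intron peaks. Bars are shares and error bars Wilson 95% intervals; LINEs are at 21.6% against 3.43% and LTR elements at 11.5% against 0.560%.

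Repeat peaks were mostly of low score. Their median was 15.7 (quartiles 11.5 and 27.7), 16 of the 93 reached the median of the list and 1, the PLAC8 peak on L2a, reached 100. By family, medians were 31.1 for ERVL-MaLR, 18.4 for ERV1, 17.6 for L1 and 12.2 for Alu. Peaks without a repeat or CpG island (117) had a median of 16.9 and an upper quartile of 48.2. The highest L1 peak, on an L1M4 element near MIR3916, scored 80.5, and the highest LTR pair, on LTR78 in NUTM2A-AS1, scored 71.5 on the − and 64.6 on the + strand. Repeats were at the centre of 60.6% of peaks in no gene, 57.8% in genes outside exons, 54.2% in lncRNA or other exons, 35.0% in protein-coding exons and 0 of 43 in pseudogene exons. CpG islands held 8 peaks, with a mean GC content of 69.8% (SD 7.06 across peaks), a median focus ratio of 0.768 and no other-strand peak within 1000 bp.

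Peaks of the 2 strands often lay near each other, both among intergenic peaks and in the rest of the list. The interval for intergenic peaks included the share of the other peaks. A peak of the other strand was centred within 1000 bp for 123 of them, or 56.4% (49.8 to 62.8%), against 50.6% of the other peaks, 44.8% in introns and 66.0% in 3′-UTRs. Where a − peak had such a partner, the + peak lay to its right 58 times out of 63, a share of 92.1% (82.7 to 96.6%), and in 92.3% of the other peaks. The median offset in those cases was 201.5 bp, against 336 bp for the other peaks, 344 bp in introns and 197 bp in 3′-UTRs. Peaks with a partner had a median score of 20.6 and peaks without one of 14.7.

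Overlapping intergenic peaks merged into 167 loci, of which 51 held 1 peak of each strand and 116 a single peak. Within the 51 pairs, the higher score was a median of 1.13 times the lower (range 1 to 3.92), and 43 pairs were within 1.5 times. The + peak scored higher in 22 pairs, and 3 were tied. The + peak was on the right in 49, with a median offset of 192 bp between centres. In 5 pairs the scores were over 2 times apart. They were ACTBP2 at 3.92, with 229.3 on the + and 58.5 on the − strand, the pairs of SAP30 at 3.53 and 2.96, PBX2P1 at 2.77 and LYPD8 at 2.17. In the SAP30 pairs, in the divergent transcript SAP30-DT, the − peak led in one with 67.5 against 19.1 and the + peak in the other with 50.7 against 17.1.

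**Figure D4:**
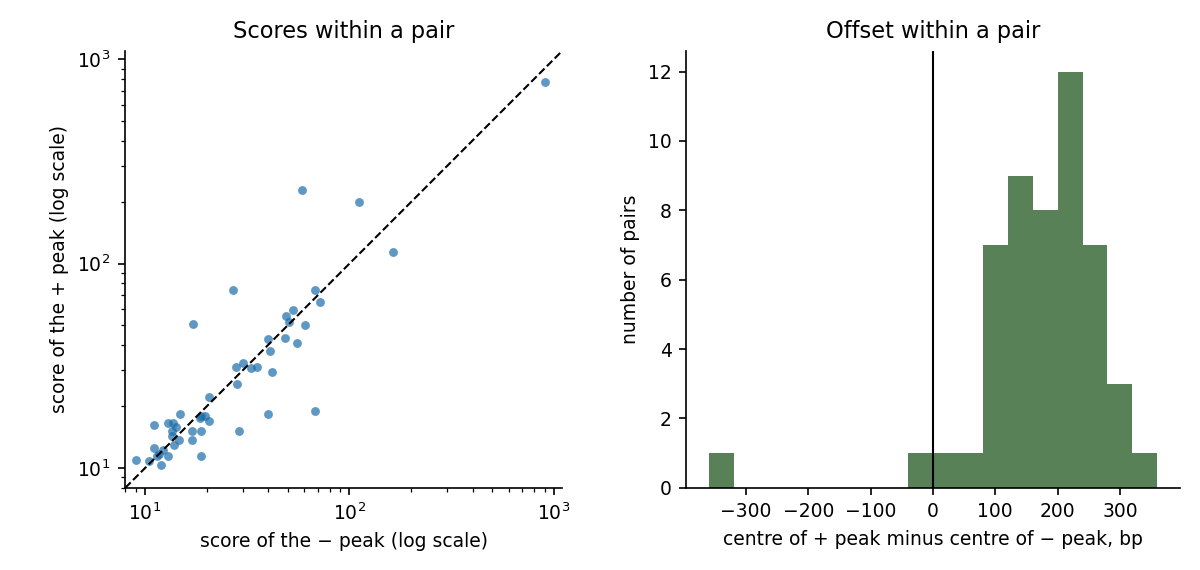
Left, score of the + peak against the − peak on log axes for 51 pairs of overlapping intergenic peaks, with equality dashed; right, the number of pairs by the distance in bp from the centre of the − peak to that of the + peak. Most pairs lie near equality (43 within 1.5 times) and 49 of 51 have the + peak on the right.

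The nearest RefSeq start site lay at a median distance of 29777.5 bp from the peak centre (quartiles 11818 and 76207), against 23487 bp for the other peaks and 28778 bp in introns. The range ran from 1209 bp at SAP30 to 835776 bp at MIR548AB. It was within 2 kb for 3 peaks, from 2 to 10 kb for 43, from 10 to 100 kb for 131 and over 100 kb for 41. Of all 218, 134 were upstream of the start site, or 61.5% (54.9 to 67.7%), and 84 downstream. The nearest gene in the list was protein-coding for 144 peaks, a non-coding RNA for 55, a pseudogene for 17 and a small nuclear RNA for 2, and 127 genes were named in all.

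**Figure D5:**
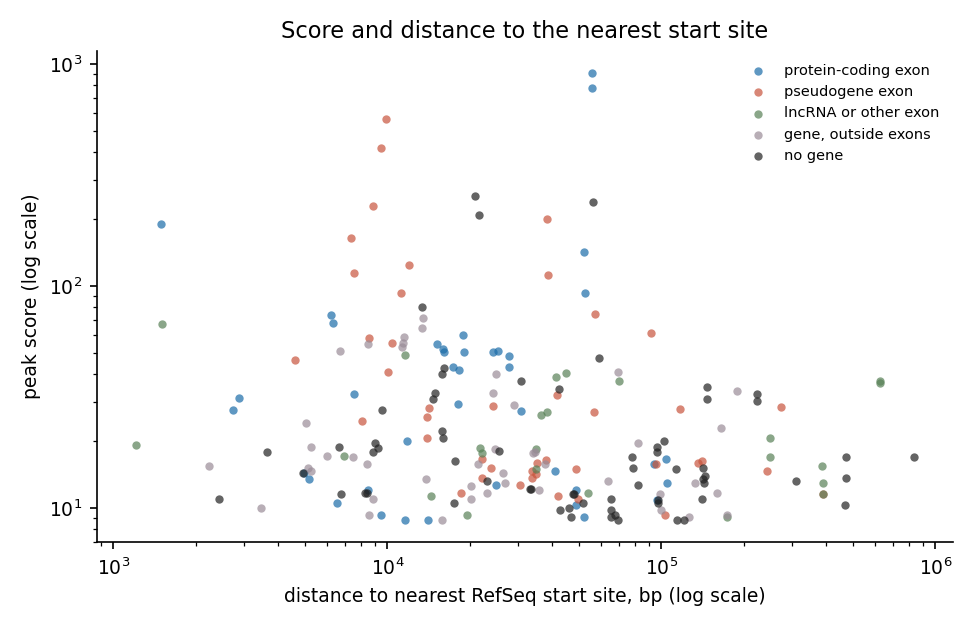
Peak score against distance to the nearest RefSeq start site in bp for the 218 intergenic peaks, both on log axes, coloured by the GENCODE 44 feature at the centre. Scores over 100 occur up to 56142 bp, and the 41 peaks beyond 100 kb stay at or below 37.2.

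The farthest peak, nearest to MIR548AB, at chr3:104359719-104360065, scored 16.9. It lay in no GENCODE gene, though in a gene span of the current RefSeq annotation. The pair nearest to TBC1D32, on chromosome 6, lay 628100 and 627751 bp away on a Tigger1 transposon within a lncRNA exon, with scores of 37.2 on the − and 36.7 on the + strand. The LINC01538 pair on chromosome 18 lay 472417 and 472220 bp away, with scores of 13.7 on the + and 16.9 on the − strand.

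Several peaks lay just past the ends of known genes. Of the 66 peaks in no gene, 11 were within 5 kb downstream of 6 protein-coding genes, with a median score of 17.9 (range 9.05 to 253.0). Besides PLAC8, the zinc-finger gene ZNF714 had peaks 840 and 968 bp past its end with scores of 20.6 and 22.3, and TCP11L2 had peaks at 1637 and 1811 bp with scores of 19.6 and 17.9. TAF1A, a subunit of the RNA polymerase I initiation complex, had peaks at 1484 and 1340 bp with a score of 11.7 each. ZNF800 had a peak at 782 bp that scored 9.05, and KRCC1 had peaks at 4771 and 4605 bp that scored 12.2 each. Of the other 55, 6 were on scaffolds for which the GENCODE models used gave no protein-coding gene. The remaining 49 had a median distance of 126738 bp to the nearest protein-coding gene. Over all intergenic peaks, 35 were within 10 kb of a peak of another kind, which was an exon peak for 11, a peak at a transcript end for 10, a 3′-UTR peak for 8, an intron peak for 5 and a non-coding peak for 1.

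Of the 127 genes in the gene column, 18 were named for 3 or more intergenic peaks, 71 peaks in all. The same count was not made for the other peaks, and the + and − peaks of a site counted separately. UBBP4 had 9, over chr17:22059141-22090365, with scores from 8.81 to 16.2 and repeats at 6 centres. The UBBP4 peaks lay 112803 to 143681 bp from the start site, and the 4 leftmost were − and + pairs on L1 elements near the pseudogene NCOR1P2. EIF4A2 and LOC105374820 had 5 each, with scores from 11.0 to 16.6 and from 10.5 to 18.8. C2orf27A, KRCC1, LYPD8, MIR3916, NUTM2A, SAP30 and SGMS1-AS1 had 4 each. The 4 SGMS1-AS1 peaks all lay in the pseudogene BEND3P1 and scored from 13.7 to 15.9. Among the 18 genes, the highest median score was that of MIR3916 with 86.5 (range 54.6 to 124.8). It was followed by NUTM2A with 59.95 (48.7 to 71.5) and CHST2 with 47.2 (26.9 to 74.4). CHST2, LINC01538, LOC100133920, LOC389831, MAGEA6, PLXNB3, SLC7A11 and TRIM43 had 3 each, with scores between 9.05 and 74.4. Among the chromosomes, intergenic peaks were most numerous on chromosome 2 with 33, or 2.78% of its listed peaks, and on chromosome 1 with 24, or 1.55%, close to the 1.54% of the whole list. Their share was highest on chromosome 17, with 14 peaks or 3.31%, and on chromosome X, with 15 or 3.07%. The 14 on chromosome 17 included the 9 UBBP4 peaks. Scaffolds outside chromosomes 1 to 22 and X held 6 intergenic peaks and 6 of the other 13931.

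AU-rich letters were counted last, over the 347 bp of each peak on its listed strand. ATTTA was present in 38.5% (32.3 to 45.1%) of intergenic peaks and, read on the other strand, in 39.9%. It was present in 49.4% of the other peaks, 54.1% in introns, 52.5% in 3′-UTRs and 35.3% in exons. A run of 5 T was present in 50.9% (44.3 to 57.5%) of intergenic and 60.1% of the other peaks. Among intergenic peaks, ATTTA was present in 58.3% (38.8 to 75.5%) of those in lncRNA or other exons, 42.2% in genes outside exons, 36.4% in no gene, 35.0% in protein-coding exons and 30.2% (18.6 to 45.1%) in pseudogene exons, and these intervals overlapped. The mean GC content was 43.3% (SD 9.51 across 218 peaks) in intergenic and 41.6% (SD 11.4) in the other peaks.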

How the data were processed

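RNA from HuR RIP (n = 2) and IgG RIP (n = 2) of MDA-MB-231 cells was sequenced. Per the labels and methods, the authors aligned reads to hg38 with STAR, called peaks with HOMER and kept peaks with a change in abundance. Versions, settings, threshold and pooling of replicates are not given in the sources used here. The deposited list gives HOMER's peak score, whose scale the authors did not state, a focus ratio that is a fraction from 0 to 1, and other deposited values such as the distance in bp to a start site. It holds 1 value per peak for the series, so the HuR and IgG samples could not be tested against each other as planned.

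Intergenic peaks were placed in GENCODE 44 (hg38, 1-based) at the centre, and repeat names came from the deposited detailed annotation. Sequences were read from hg38 and compared with GENCODE 44 protein-coding transcripts by blastn 2.17.0 (megablast, E-value limit 1e-20). The listed scores under 30 were searched for a step, and 0.245 was the best fit. Of the 203 intergenic scores under 100, 202, or 99.5%, lay on whole multiples of it (within 0.05 score units). A step chosen without the data would give 40.9% by chance. This step was fitted to scores that included intergenic ones, so the share is not an independent test. If 1 step is 1 tag, which the authors do not state, the median score stands for 70 tags and the lowest for 36. Shares carry Wilson 95% intervals, which cover counting error only and treat peaks as independent. Since 51 of the 167 loci held overlapping + and − peaks, the intervals may be too narrow. Reads carried no molecular identifiers.

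The peaks named were the 10 highest in score, the 5 farthest from a start site, the 5 lowest with ties, and genes with 3 or more intergenic peaks. Other named peaks, the split of GENCODE exons by gene type and the mRNA matches were chosen after values were seen. The members and lists were chosen with earlier results of these data known. Alternatives were the score, locus, position and motif settings given in the closing section. Python 3.11.15, pandas 2.3.3, scipy 1.17.1 and pysam 0.24.0 were used, and functions were tested on simulated data.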

Additional observations from a re-analysis of the deposited data

How the results depend on the processing

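Of 57 alternatives over 15 results, 38 left the value within its 95% interval, or a count within 1.5 times, and 19 moved it. The other peaks were not recounted under these settings, so the directions of the comparisons with them were not checked. Only peaks at or above the list median gave 59 intergenic peaks, a median score of 55.3, a median distance to a start site of 17359 bp, repeats in 27.1%, an other-strand peak in 78.0%, a GENCODE gene in 83.1%, a GENCODE exon in 67.8%, a position downstream of the nearest protein-coding gene in 16.9% (32.1% with all peaks) and, added after the data were seen, a protein-coding exon in 30.5% and an mRNA match in 37.3%. The median distance of 17359 bp fell below the 23487 bp of all other peaks, to which the score filter was not applied. The median score of 55.3 was above their 34.3, but the filter itself sets this, so it does not compare the 2 kinds. With 1 peak per locus an other-strand peak was present in 43.1%. The 50.6% of all other peaks was not thinned to 1 peak per locus, so the 2 shares are not comparable. Peaks touching no GENCODE gene numbered 61. Protein-coding genes alone held 29.4% of centres, and any overlap with an exon gave 57.8%. A run of 5 T gave 50.9% in place of ATTTA, and ATTTA on either strand 58.3%. With the nearest gene of any type, 18.9% lay downstream. Matches at 95% identity over 300 bp were found for 17.9%, and in peaks without a repeat for 36.8%, both added after the data were seen. The cause of these moves beyond the selection itself was not tested. No paired analysis was possible because each peak has 1 value for the whole series. The planned comparison of HuR with IgG samples, the replicate block and the fits that leave out a replicate were therefore not run. The number of tags behind a score is unstated, and low scores limit how firmly single peaks can be ranked.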
